A study of Homo sapiens with 12 samples.

Results

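Transcripts of 9 glycolytic enzymes (HK2, ALDOA, TPI1, GAPDH, PGK1, PGAM1, ENO1, PKM and LDHA) and of TXNIP, the thioredoxin-interacting protein, were followed in U937 cells treated with antibodies against LILRB3, an inhibitory receptor of myeloid cells. The 10 genes were taken by symbol from the gene columns of 2 count tables, which together listed 27827 gene symbols. All 10 were in the table of the antagonist experiment (set 1). Of the 10, TXNIP alone was in the table of the agonist experiment (set 2), which listed 904 genes. The genes were chosen by pathway with earlier results of these libraries known, and TXNIP was selected on its log2 fold changes against IgG in both sets, which have opposite signs. Values of the 10 genes are therefore given as descriptions, without a test.

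U937 is a human myeloid leukaemia line with monocytic features. The study compared RNA of cells given an LILRB3 antagonist antibody with RNA of cells given IgG (set 1), and RNA of cells given an LILRB3 agonist antibody with RNA of cells given a separate IgG control (set 2). Cells of all 4 groups were first exposed to interferon gamma at 50 ng/mL, and the antibody was then present for 72 h at a dose the labels write as 5 mg/mL. Each group had 3 libraries. Nothing in the labels says whether the 3 came from separate cultures, so the spread between them may be technical. The samples were of 1 line, no untreated cells or cells without interferon gamma are described, and the antibody clones are not named in the labels.

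Glycolysis splits glucose into pyruvate in the cytosol and yields ATP and NADH. Myeloid cells rely on it when activated, and lactate dehydrogenase returns NADH to NAD+ by reducing pyruvate to lactate. TXNIP is an alpha-arrestin that binds thioredoxin and promotes removal of glucose transporters from the cell surface. Its gene is a known target of the glucose-sensing transcription factors MondoA (MLXIP) and ChREBP (MLXIPL), which bind carbohydrate response elements, while several glycolytic enzyme genes are known targets of hypoxia-inducible factor 1.

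The promoters of 4 of the genes are shown because these 2 routes of control act through short DNA motifs. Each is the 250 bases before the outermost annotated start in RefSeq (GRCh38.p14), on the strand of the gene. In TXNIP (chr1:145996580-145996829, minus strand) capitals mark the carbohydrate response element letters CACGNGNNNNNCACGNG. In LDHA (chr11:18394313-18394562, plus strand), PGK1 (chrX:78103998-78104247, plus strand) and HK2 (chr2:74833877-74834126, plus strand) capitals mark ACGTG, the core of hypoxia response elements, on either strand, so that a match on the other strand reads CACGT.
TXNIP: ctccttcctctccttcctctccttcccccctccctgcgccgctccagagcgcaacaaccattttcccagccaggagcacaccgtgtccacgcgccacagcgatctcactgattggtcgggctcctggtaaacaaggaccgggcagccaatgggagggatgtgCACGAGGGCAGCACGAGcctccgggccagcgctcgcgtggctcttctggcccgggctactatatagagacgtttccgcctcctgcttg
LDHA: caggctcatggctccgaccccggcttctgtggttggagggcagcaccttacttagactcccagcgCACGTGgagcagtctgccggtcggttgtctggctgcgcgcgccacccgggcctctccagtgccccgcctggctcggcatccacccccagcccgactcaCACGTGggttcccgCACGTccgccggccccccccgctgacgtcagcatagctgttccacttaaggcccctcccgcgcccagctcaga
PGK1: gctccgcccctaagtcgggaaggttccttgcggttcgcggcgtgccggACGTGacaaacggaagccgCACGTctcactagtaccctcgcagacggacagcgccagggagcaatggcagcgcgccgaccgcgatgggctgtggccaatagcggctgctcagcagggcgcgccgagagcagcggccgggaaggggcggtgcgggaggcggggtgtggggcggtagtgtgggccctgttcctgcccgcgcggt
HK2: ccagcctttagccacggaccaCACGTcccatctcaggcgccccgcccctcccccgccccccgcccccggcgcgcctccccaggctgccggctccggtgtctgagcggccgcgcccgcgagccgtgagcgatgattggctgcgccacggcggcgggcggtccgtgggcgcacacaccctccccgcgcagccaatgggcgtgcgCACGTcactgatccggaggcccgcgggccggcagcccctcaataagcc

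The TXNIP element read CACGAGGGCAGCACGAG and lay 88 to 72 bases before the start (chr1:145996651-145996667). Among 35116 RefSeq windows of 300 bases (250 before to 50 after a start), 20 held these letters on either strand, a share of 0.05695%. Among the 16 windows of the 10 genes, 1 held them. ACGTG was found in 10 of the 16 windows, belonging to 7 of the 10 genes, against 21.41% of all windows. Of the genes not shown, ENO1 held 0 matches and ALDOA 1 in the 250 bases before the outermost start. The palindrome CACGTG, the E-box bound by MYC and by USF proteins, was found in 4 windows of 4 genes, against 7.256% of all windows. Every CACGTG contains ACGTG on both strands, so these 2 counts overlap. A match describes the letters of the window and does not show that a factor binds there.

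In the same build TXNIP lies at chr1:145992435-145996579 and ENO1 on the same chromosome at chr1:8861000-8878686. GAPDH (chr12:6534517-6538371) and TPI1 (chr12:6867420-6870948) are also on one chromosome. The other genes lie apart, PGK1 at chrX:78104248-78129295, LDHA at chr11:18394563-18408425, HK2 at chr2:74834127-74893359, PKM at chr15:72199029-72231591, ALDOA at chr16:30064279-30070420 and PGAM1 at chr10:97426191-97433444. The deposited counts are per gene, so a value does not separate transcripts or exons of a gene.

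The libraries of set 1 held 17035334 to 17771980 counts with the antagonist and 17142362 to 18820312 counts with IgG. The listed counts of set 2 summed to 3135972 to 3522203 with the agonist and 2764479 to 3321678 with IgG, and these sums are not library depths. The U937 label was checked against 16 myeloid markers in set 1, whose summed level was 7023 to 7490 CPM (counts scaled to a common library size, here by column totals) with the antagonist and 7231 to 8259 CPM with IgG. SPI1, CD33, ELANE, AZU1, CTSG and CEBPA were all expressed, while the monocyte marker CD14 had 13 counts over the antagonist libraries and 22 counts over the IgG libraries of set 1. CSF1R (139 and 132 counts) and MPO (43 and 25 counts) were also scarce in these antagonist and IgG libraries. Of the 15 markers tested in set 1, 4 fell, namely LYZ (-0.46), TYROBP (-0.38), CTSG (-0.35) and FCER1G (-0.28), and ITGAX rose (0.42). The FCER1G call was lost with column totals (-0.20) and with length and GC trends removed (-0.09). The set 2 table listed 5 of the 16 markers, and there CD14 had 1828 counts over the agonist libraries and 892 counts over the IgG libraries, so the 2 sets differed in CD14. Markers of T and NK cells (8 genes) summed to at most 3.66 CPM with the antagonist and 3.52 CPM with IgG, with CD3G at 0. Those of erythroid cells (5 genes) summed to at most 1.35 and 1.01 CPM, with HBB at 0, and those of epithelium or fibroblasts (7 genes) to at most 2.70 and 2.10 CPM, with EPCAM at 0. B-cell markers (5 genes) summed to 32.5 to 36.9 CPM with the antagonist and 29.9 to 31.9 CPM with IgG, with MS4A1 at 0. Among replicates, the first IgG library of set 1 differed most from its partners (chi-square per degree of freedom 10.9 and 19.6, against 4.50 between the other two), and so did the first agonist library (24.9 and 26.6, against 3.74).

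In set 1, glycolytic enzyme transcripts were lower in antagonist-treated cells than in IgG-treated cells at 8 of the 9 steps followed, and HK2 was the exception. The median log2 fold change of the 9 enzymes, antagonist over IgG, was -0.35, beside -0.01 over all 13778 genes tested. TXNIP was lower too, at -0.25. By edgeR's quasi-likelihood test with Benjamini-Hochberg adjustment over all genes, 9 of the 10 genes passed an adjusted p of 0.05 as lower, where 20.5% of all genes tested did. In the same 9 genes every antagonist library lay below every IgG library, which held for 27.1% of all genes tested. The choice of genes used this contrast, so nothing is read from these 2 counts. Because RNA was taken from bulk cells, fewer cells of a kind and less RNA per cell cannot be told apart.

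**Figure D1:**
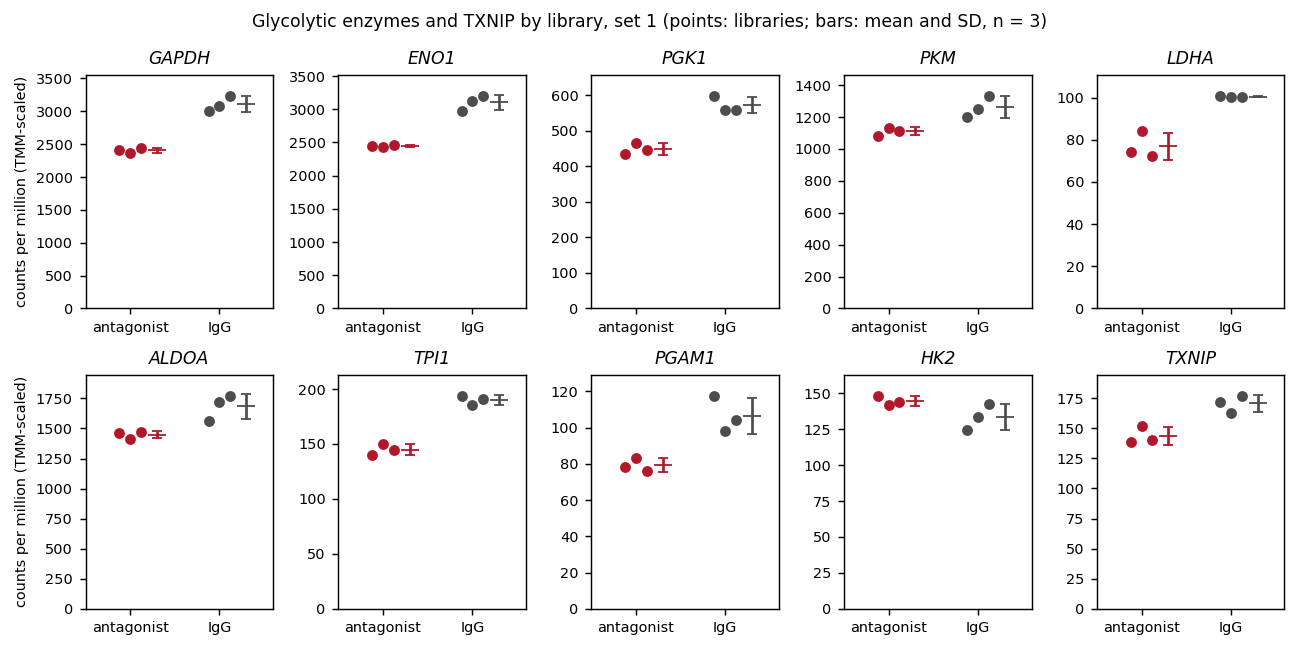
Normalised level of the 9 enzymes and TXNIP in each set 1 library (y axis, TMM-scaled CPM, from 0), antagonist left and IgG right. Points are libraries and bars are the mean and SD of 3. The antagonist points lie below the IgG points in 9 panels, and the 2 groups overlap for HK2.

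The enzyme transcripts spanned a wide range of abundance. Per kilobase of transcript, the IgG mean ran in the order GAPDH (1657 CPM per kb), ENO1 (1323), ALDOA (1050), PKM (464), TPI1 (154), PGK1 (117), TXNIP (58.3), PGAM1 (58.2), LDHA (41.6) and HK2 (23.2). Between neighbours in this order the IgG libraries overlapped for TXNIP and PGAM1 alone. Each length was that of a single annotated transcript of the gene, and the order may depend on that choice. In antagonist libraries the 9 enzymes together took 0.849% to 0.856% of all counts, against 0.976% to 1.01% in IgG libraries. The groups did not overlap in this share.

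Hexokinase traps glucose in the cell as glucose 6-phosphate, and HK2 is its inducible isoform. HK2 had 148.1, 141.6 and 144.2 CPM with the antagonist, against 124.8, 133.8 and 142.4 CPM with IgG. The highest IgG library lay above the lowest antagonist library, so the groups overlapped, and the log2 fold change was 0.11 ± 0.06 (SE, n = 3 each). HK1, the constitutive isoform, had 162.0, 157.4 and 168.4 CPM with the antagonist and 176.0, 192.3 and 194.2 CPM with IgG. HK1 fell, by 0.21 on the log2 scale (edgeR quasi-likelihood adjusted p = 0.0195), but its call was lost when any one of 4 libraries was left out, namely IgG library 2 or 3 or antagonist library 1 or 2 (-0.20 to -0.17), and with column totals as the scale (-0.12). Per 100 HK1 counts there were 85.6 to 91.4 HK2 counts in antagonist libraries, against 69.6 to 73.4 in IgG libraries, without overlap. This ratio of counts within a library does not depend on the scaling, and it was not tested. HK3, a myeloid-expressed hexokinase, had 10.2 to 11.3 CPM with the antagonist and 10.8 to 13.6 CPM with IgG (-0.15 ± 0.12, adjusted p = 0.354 by edgeR).

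The next 2 steps are catalysed by enzymes outside the chosen list. Glucose-6-phosphate isomerase (GPI) did not pass the test, with a log2 fold change of -0.15 ± 0.06 (edgeR adjusted p = 0.0643). Phosphofructokinase commits the sugar to glycolysis, and its liver-type subunit PFKL (-0.07 ± 0.09, edgeR adjusted p = 0.582) and its platelet-type subunit PFKP (-0.02 ± 0.07, edgeR adjusted p = 0.856) had overlapping groups. PFKL had 528.5 to 580.3 CPM with the antagonist, against 502.7 to 652.9 CPM with IgG. Both values changed sign with column totals (0.017 for PFKL and 0.062 for PFKP). GPI passed the test as lower without IgG library 1 (-0.16) and with length and GC trends removed (-0.24). PFKL did so under the same 2 alternatives (-0.14 and -0.21).

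Aldolase cleaves fructose 1,6-bisphosphate into 2 triose phosphates. ALDOA, its main form here, had 1461, 1415 and 1473 CPM with the antagonist, against 1564, 1718 and 1769 CPM with IgG. The antagonist libraries lay close together below the lowest IgG library (-0.22 ± 0.06, SE). Leaving out any one of 5 libraries (all but the first IgG library) or scaling by column totals (-0.13) put its adjusted p above 0.05. Of 50-base windows of the ALDOA transcript, 97.0% also occurred in other annotated genes, mostly a locus that overlaps it, so its counts depend on how the authors assigned such reads. The isoform ALDOC had 10.57 to 11.97 CPM with the antagonist and 12.4 to 13.9 CPM with IgG (-0.24 ± 0.10, edgeR adjusted p = 0.0959).

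TPI1, which interconverts the 2 triose phosphates, had 139.6, 149.9 and 144.9 CPM with the antagonist, against 193.5, 185.4 and 191.2 CPM with IgG. All antagonist libraries were clearly below the IgG libraries, and the antagonist mean was 76.2% of the IgG mean (-0.39 ± 0.06, SE). TPI1 shares 30.1% of its windows with other genes, nearly all with a pseudogene, and it overlaps SPSB2.

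GAPDH oxidises glyceraldehyde 3-phosphate and forms NADH. It had 2405, 2369 and 2439 CPM with the antagonist, against 3001, 3086 and 3236 CPM with IgG. The difference between the groups exceeded the spread within either, at 2405 ± 35 CPM against 3108 ± 119 CPM (SD, n = 3 each), and the log2 fold change was -0.37 ± 0.05 (SE). GAPDH is often used as a reference transcript, and here it was not level between the 2 groups on the scale used. In all, 14 other annotated genes share 31.4% of its windows.

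PGK1, which makes the first ATP of the pathway, had 433.8, 467.1 and 445.9 CPM with the antagonist, against 598.6, 559.7 and 557.9 CPM with IgG. Its log2 fold change was -0.35 ± 0.06 (SE). PGAM1, which moves the phosphate group of phosphoglycerate, had 78.4, 83.5 and 76.4 CPM with the antagonist, against 117.4, 98.0 and 104.1 CPM with IgG. It had the most negative log2 fold change of the 10 genes at these settings, -0.42 ± 0.07 (SE), although those of TPI1, LDHA and GAPDH were within its error. PGAM1 shares 43.3% of its windows with other genes, mostly with 1 locus, so part of its count may belong to them.

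ENO1, the enolase of most tissues, had 2444, 2435 and 2467 CPM with the antagonist, against 2977, 3127 and 3202 CPM with IgG. The 3 antagonist libraries differed little from each other and lay below all IgG libraries (-0.34 ± 0.05, SE). ENO2, the neuronal form, was scarce, with 3.20 to 4.63 CPM with the antagonist and 3.26 to 4.30 CPM with IgG (0.01 ± 0.19, edgeR adjusted p = 0.962).

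PKM, the pyruvate kinase of most cells, makes the last ATP of the pathway. It had 1083, 1135 and 1115 CPM with the antagonist, against 1198, 1252 and 1334 CPM with IgG. The groups were separate, but the difference was the smallest among the 9 genes called lower (-0.18 ± 0.06, SE), and leaving out any one of 5 libraries (all but the first IgG library), column totals (-0.10) or upper-quartile scaling put its adjusted p above 0.05. Gene-level counts do not separate its M1 and M2 splice forms.

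LDHA, the lactate dehydrogenase subunit that favours lactate formation, had 74.4, 84.1 and 72.3 CPM with the antagonist, against 100.8, 100.1 and 100.3 CPM with IgG. The IgG libraries were nearly identical, and all antagonist libraries were lower (-0.38 ± 0.07, SE). Removal of transcript length and GC trends, an alternative added after seeing the data, left -0.25. LDHB, the partner subunit, fell by 0.44 on the log2 scale (SE 0.06, edgeR adjusted p = 0.00048), with 468 to 516 CPM with the antagonist and 632 to 695 CPM with IgG. Counts of LDHA per 100 LDHB counts were 15.4 to 16.3 with the antagonist and 14.5 to 15.9 with IgG, and overlapped. LDHA shares 10.1% of its windows with other genes. LDHB shares 58.5% of its windows with other genes, almost all with 1 locus.

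**Figure D2:**
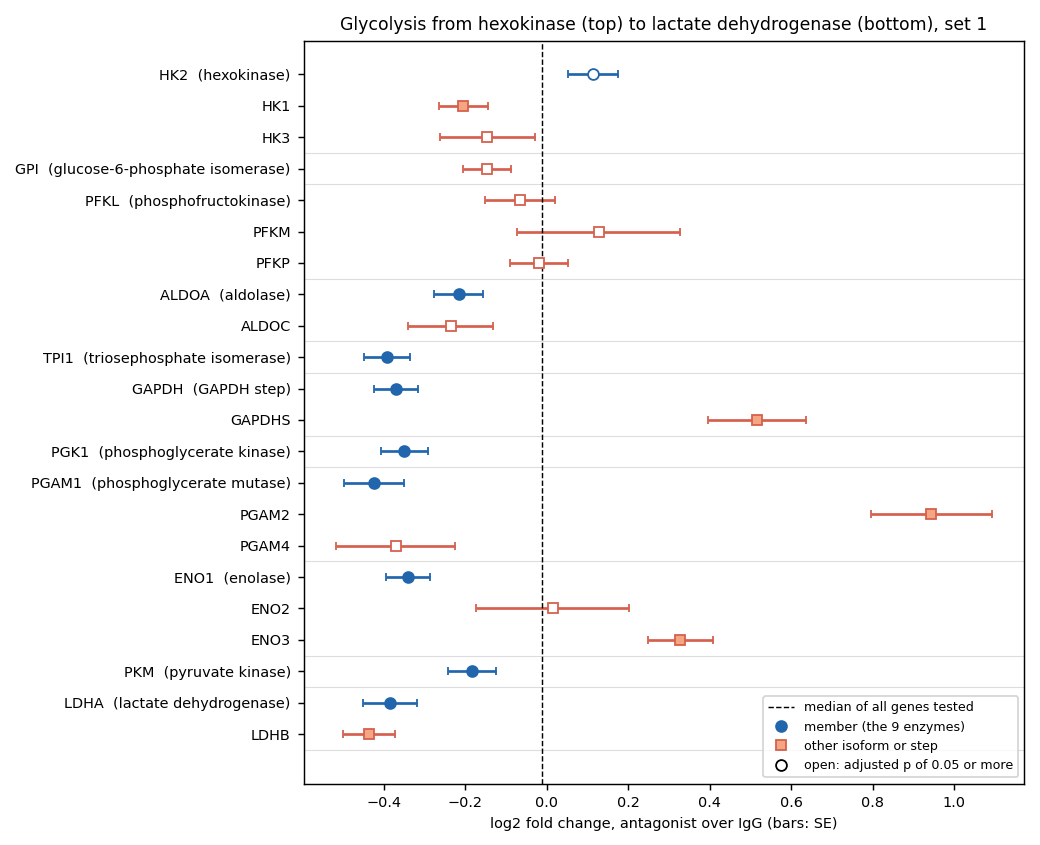
Log2 fold change, antagonist over IgG (x axis, bars are SE), for each step from hexokinase at the top to lactate dehydrogenase at the bottom. Blue circles are the 9 enzymes followed, orange squares other isoforms or steps, open symbols have an adjusted p of 0.05 or more, and the dashed line is the median of all genes (-0.01). Filled blue circles run from -0.42 (PGAM1) to -0.18 (PKM), and HK2 stands at 0.11.

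Ratios between the enzymes were not all alike in the antagonist and IgG groups. PKM counts per 100 GAPDH counts were 45.0 to 47.9 with the antagonist, against 39.9 to 41.2 with IgG. ALDOA counts per 100 GAPDH counts were 59.7 to 60.7 with the antagonist, against 52.1 to 55.7 with IgG. HK2 counts per 100 GAPDH counts were 5.91 to 6.16 with the antagonist, against 4.16 to 4.40 with IgG. These 3 ratios did not overlap between the groups, whereas ENO1 counts per 100 GAPDH counts did, at 101.1 to 102.7 with the antagonist and 98.97 to 101.3 with IgG. The ratios were not tested, and PGK1, TPI1, PGAM1 and LDHA were not set against GAPDH. The IgG libraries also differed among themselves by gene. The first IgG library was the lowest of its group for GAPDH, ENO1, PKM, ALDOA and HK2 and the highest for PGK1, TPI1, PGAM1 and LDHA. Without it the log2 fold changes of the 8 lower enzymes stayed below 0, and the median of the 9 enzymes was -0.32.

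Of the other glycolytic enzymes and isoforms, 18 of 26 passed the filter on low counts. Of these 3 fell, 3 rose and 12 did not pass the test, with a median log2 fold change of -0.10. Over all genes tested 20.5% fell and 15.6% rose, so these counts are near the background. LDHB, HK1 and BPGM fell. BPGM, which makes 2,3-bisphosphoglycerate, fell by 0.41 on the log2 scale (edgeR adjusted p = 0.014), a call lost without antagonist library 1 or 3 or IgG library 2, with DESeq2, and with the trends removed (-0.25). The 3 that rose are tissue-restricted forms, of which PGAM2 and GAPDHS were at low levels. PGAM2, the muscle mutase, had 12.7 to 16.2 CPM with the antagonist and 5.81 to 8.26 CPM with IgG (0.94 ± 0.15, edgeR adjusted p = 0.000699), and 88.6% of its windows lie in DBNL as well. GAPDHS, the sperm form, had 10.04 to 11.31 CPM with the antagonist and 6.67 to 7.96 CPM with IgG (0.52 ± 0.12, edgeR adjusted p = 0.00574), and 41.5% of its windows are shared with TMEM147-AS1. The authors' use of strand is not stated, so reads of the sense and antisense gene cannot be told apart. ENO3, the muscle enolase, rose by 0.33 on the log2 scale (edgeR adjusted p = 0.00728). It had 29.9 to 31.4 CPM with the antagonist and 22.5 to 25.9 CPM with IgG, and 0.61% of its windows are shared.

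Glucose enters and lactate leaves by carriers. Of the 12 genes of this list, 9 were tested, 3 fell and none rose, with a median of -0.21, beside 20.5% lower and 15.6% higher over all genes. The number that fell was 1 to 5 under the alternatives. SLC16A1, the lactate carrier MCT1, fell to 31.2 to 33.6 CPM with the antagonist, against 39.1 to 43.1 CPM with IgG (-0.38 ± 0.07, edgeR adjusted p = 0.00197). SLC16A3, the lactate exporter MCT4, had 247 to 289 CPM with the antagonist and 301 to 341 CPM with IgG (-0.24 ± 0.07, edgeR adjusted p = 0.0201). BSG, the chaperone of both carriers, fell by 0.21 on the log2 scale (edgeR adjusted p = 0.0124). The calls of SLC16A3 and BSG were lost with column totals (-0.16 and -0.12) and when IgG library 2, or antagonist library 2 or 3, was left out, and that of BSG also when the first antagonist library was. The glucose transporters SLC2A1 (-0.20 ± 0.09, edgeR adjusted p = 0.0941) and SLC2A3 (-0.10 ± 0.07, edgeR adjusted p = 0.339) had overlapping groups. SLC2A1 was called lower without IgG library 1 (-0.26), with length and GC trends removed (-0.28) and with no filter (-0.21).

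TXNIP in set 1 had 138.5, 152.0 and 140.6 CPM with the antagonist, against 172.1, 163.1 and 176.8 CPM with IgG. The highest antagonist library was below the lowest IgG library, at 84.2% of the IgG mean for the group mean, and the log2 fold change was -0.25 ± 0.06 (SE, n = 3 each). The value without antagonist library 1 was -0.22 and with column totals -0.17, both with an adjusted p above 0.05, and it was -0.14 with length and GC trends removed. Its counts per 100 GAPDH counts were 5.76 to 6.42 with the antagonist and 5.28 to 5.74 with IgG. The means were 5.98 and 5.49, but antagonist libraries at 5.758 and 5.764 lay barely above the highest IgG library (5.735). This ratio was not tested. No 50-base window of the TXNIP transcript occurred in another annotated gene.

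In set 2 the order was the opposite. TXNIP had 36888, 34989 and 37286 counts with the agonist, against 26731, 22117 and 25463 counts with IgG. On the CPM scale of the listed counts these were 10780, 11075 and 11013 with the agonist, against 8071, 7915 and 8006 with IgG. The groups were far apart relative to their spread, and the log2 fold change was 0.45 ± 0.04 (SE, n = 3 each). Across the 12 alternatives it ran from 0.36 to 0.56. Of the listed genes, 99.9% passed the adjusted p of 0.05, 55.6% passed it as higher, and in 53.4% every agonist library lay above every IgG library, so that passing or not overlapping says nothing about TXNIP there. The table lists selected genes, which leaves the zero point of its fold changes uncertain. All 5 myeloid markers in that table were higher with the agonist too, CD14 by 0.93 ± 0.11, CSF1R by 0.67 ± 0.22, ITGAX by 0.54 ± 0.06, TYROBP by 0.54 ± 0.09 and FCER1G by 0.30 ± 0.07 (log2 fold change and SE). CSF1R overlapped between the groups and was at 0.39 without agonist library 3, and TYROBP and FCER1G were at 0.09 and 0.06 with length and GC trends removed, all 3 then short of the threshold. In set 1, where TXNIP was lower, TYROBP and FCER1G fell and ITGAX rose. The part of these markers in the TXNIP values was not tested.

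TXNIP also differed in level between the experiments. Over the 902 genes in both tables, TXNIP took 0.0974% to 0.108% of counts with the antagonist and 0.107% to 0.115% with the IgG of set 1. Its share was 1.05% to 1.12% with the agonist and 0.800% to 0.808% with the IgG of set 2. The 2 IgG groups thus differed 7.19-fold in this share, more than either antibody from its own IgG. Among 861 shared genes with at least 30 IgG counts in each set, the ratio of set 2 to set 1 had a median of 1.04 and quartiles of 0.581 and 1.81, and TXNIP ranked 34th from the highest. The alpha-arrestin ARRDC3 ranked 24th, with a ratio of 11.9. The tables were made separately and these levels were not tested against each other. Nothing in the labels describes a difference between the 2 IgG groups, neither of which received an LILRB3 antibody. A difference between the antagonist and agonist effects cannot be told apart from a difference between the experiments.

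**Figure D3:**
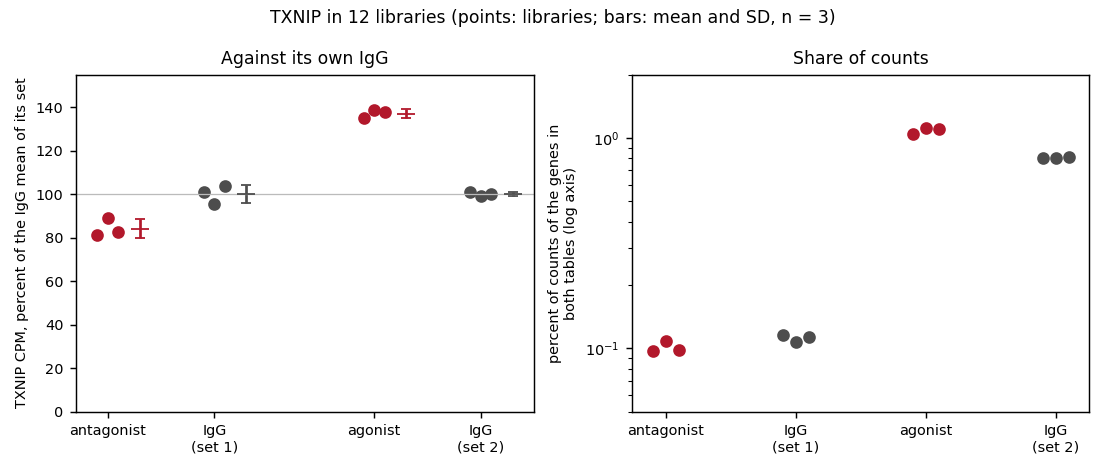
TXNIP in the 12 libraries. Left, CPM as a percent of the IgG mean of the same set (linear axis from 0; points are libraries, bars mean and SD of 3), with the antagonist group mean at 84.2% and the agonist group mean at 137%. Right, TXNIP as a percent of the counts of the 902 genes in both tables (log axis), about 0.1% in set 1 and about 1% in set 2.

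The genes whose pattern was most like that of TXNIP were sought among 866 genes over the 12 libraries, by the root mean square distance of log2 CPM centred on the IgG mean of each set. ANO10, a membrane protein of the anoctamin family, was nearest at 0.068, followed by TIMP1, an inhibitor of metalloproteinases, at 0.069. PECAM1, an adhesion molecule of leukocytes and endothelium (0.074), FTH1, the ferritin heavy chain (0.079), and SLC25A11, a mitochondrial oxoglutarate carrier (0.079), came next. Their log2 fold changes ran from -0.30 (TIMP1) to -0.18 (SLC25A11) with the antagonist and from 0.36 (SLC25A11) to 0.43 (ANO10 and TIMP1) with the agonist. The genes were picked by closeness to TXNIP in these same libraries, so fold changes near those of TXNIP followed from the choice. Whether they share a control with TXNIP was not tested. Of 867 genes tested in both sets, 118 (13.6%) were called lower with the antagonist and higher with the agonist, as TXNIP was, 54 (6.23%) the reverse, 14.8% lower with both and 11.6% higher with both.

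Partners and regulators of TXNIP formed a list of 17 genes, of which 14 were tested in set 1, 3 fell and 2 rose (median -0.08), which is near the 20.5% and 15.6% over all genes. TXN, the thioredoxin that TXNIP binds, had 116 CPM, 122 CPM and 114 CPM with the antagonist, against 195 CPM, 157 CPM and 156 CPM with IgG, and fell by 0.53 on the log2 scale (SE 0.08, edgeR adjusted p = 0.000699). TXNRD1, which reduces thioredoxin, fell by 0.31 (edgeR adjusted p = 0.00279) and TXN2, the mitochondrial thioredoxin, by 0.28 (edgeR adjusted p = 0.00796), the last a call lost without antagonist library 3 (-0.25). MLXIP, which encodes MondoA, rose to 43.7 to 52.5 CPM with the antagonist, against 29.3 to 39.3 CPM with IgG (0.45 ± 0.11, edgeR adjusted p = 0.0067). The MLXIP call was lost when length and GC trends were removed (0.18). The other riser was the alpha-arrestin ARRDC2 (0.22), a call lost without antagonist library 1 (0.18) or 3 (0.20). The second classical MondoA target of the family, ARRDC4, had 15 counts over the antagonist libraries and 11 over the IgG libraries and was not tested. ARRDC3 had a log2 fold change of -0.38 ± 0.26 with the antagonist, with overlapping groups, and was listed in set 2 at 0.78 ± 0.11 with the agonist.

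Of the 20 genes with the carbohydrate response element letters in a promoter window, TXNIP included, 15 were tested in set 1. Of these, 7 were called lower and 1 higher, beside 20.5% and 15.6% of all genes tested. TXNIP is 1 of the 7 and was chosen on its value in this contrast, so its call adds nothing to the count. A part of the element in these values was not tested. TXNIP was the only one of the 20 in the set 2 table.

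Of 18 tested genes of the hypoxia-inducible factor pathway outside glycolysis, 4 fell (P4HA1, EGLN1, BNIP3L and DDIT4) and 2 rose, with a median of -0.01. These counts are near the 20.5% lower and 15.6% higher over all genes. HIF1AN, which encodes the inhibitor FIH, rose by 0.40 on the log2 scale (edgeR adjusted p = 0.000646), and VEGFA, the angiogenic growth factor, rose by 0.32 (edgeR adjusted p = 0.00235). P4HA1, a collagen prolyl hydroxylase subunit, fell by 0.40 (edgeR adjusted p = 0.00649). EGLN1, the oxygen-sensing hydroxylase PHD2, fell by 0.25 (edgeR adjusted p = 0.0127), a call lost with column totals (-0.17) and when IgG library 2 or either of antagonist libraries 2 and 3 was dropped.

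The calls of DDIT4 (-0.23) and BNIP3L (-0.25) were lost with column totals and when either IgG library 2 or antagonist library 3 was dropped. That of BNIP3L was also lost without IgG library 1 (-0.16) or antagonist library 1 and with trends removed (-0.09).

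The routes that branch from glycolysis, and those that follow it, were also measured. In the pentose phosphate pathway, which makes NADPH and ribose, 4 of 8 genes fell (TALDO1, PGLS, PGD and TKT) and 1 rose (H6PD, 0.21), with a median of -0.23, beside 20.5% lower and 15.6% higher over all genes. The H6PD call was lost when any 1 antagonist library was left out, and with trends removed the value was -0.06. The TKT call was lost with column totals (-0.15) and without IgG library 2 or antagonist library 1. Transaldolase (TALDO1) had 235 to 244 CPM with the antagonist and 304 to 321 CPM with IgG (-0.39 ± 0.06, edgeR adjusted p = 0.000466). Among genes of pyruvate entry and the citric acid cycle 25 of 33 fell and 1 rose, against the same 20.5% and 15.6% over all genes, with a median of -0.23, and the count was 13 when column totals set the scale. The mitochondrial pyruvate carrier subunit MPC2 fell by 0.46 (edgeR adjusted p = 0.000467), the succinyl-CoA ligase subunit SUCLG2 by 0.46 (edgeR adjusted p = 0.000772), the succinate dehydrogenase subunit SDHD by 0.43 (edgeR adjusted p = 0.00198) and the malate dehydrogenase MDH1 by 0.39 (edgeR adjusted p = 0.00114). The riser was PDP2, a phosphatase that activates pyruvate dehydrogenase (0.32). In the branches to glycogen, serine, hexosamines and glycerol phosphate 13 of 18 fell and none rose, against 20.5% and 15.6%, with a median of -0.27. They included PSPH, the last enzyme of serine synthesis (-0.42), GNPNAT1 and UAP1 of hexosamine synthesis (-0.40 and -0.39) and UGP2, which makes UDP-glucose (-0.37). ENO3, ARRDC2, H6PD, PDP2, BNIP3L, DDIT4 and the myeloid markers, named beyond the rule for the other genes, were chosen after their values were seen.

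**Figure D4:**
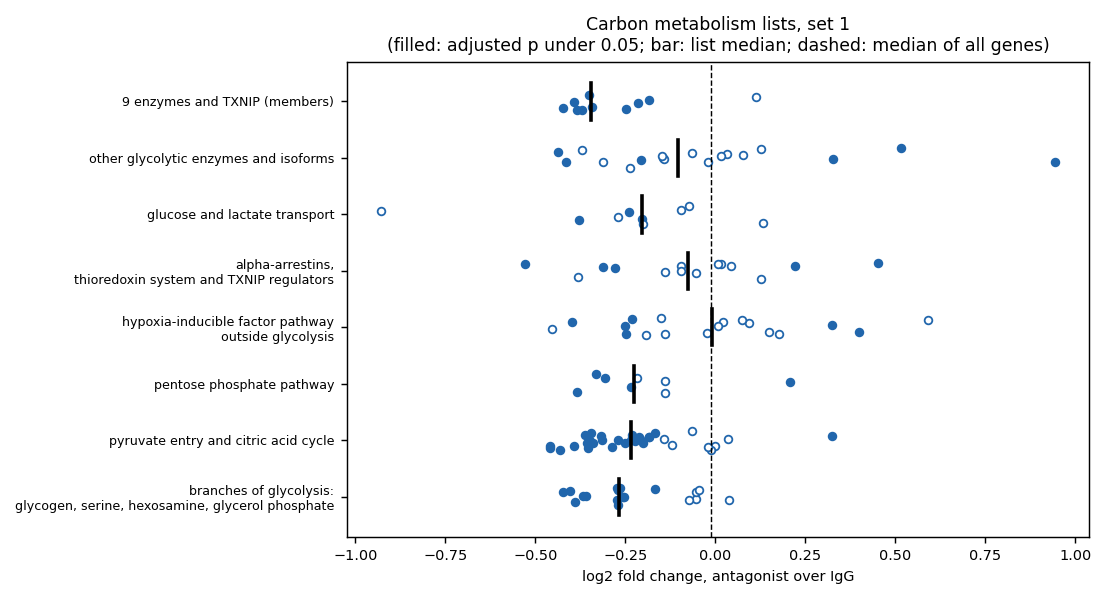
Log2 fold change, antagonist over IgG (x axis), of each gene tested in 8 lists of carbon metabolism. Filled points have an adjusted p under 0.05, black bars are list medians and the dashed line is the median of all genes (-0.01). The medians run from -0.35 for the 10 genes followed to -0.01 for the hypoxia-inducible factor list.

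The set 2 table held few of these genes. None of the 9 enzymes and no gene of the hypoxia list was in it. Genes of the other lists in it included HK3 (log2 fold change 0.48 ± 0.11, agonist over IgG), SLC2A3 (0.14 ± 0.06), SLC16A3 (0.20 ± 0.07), ARRDC3, pyruvate carboxylase PC (0.39 ± 0.12) and the serine hydroxymethyltransferase SHMT2 (-0.34 ± 0.05). HK3 had 315 to 433 CPM of listed counts with the agonist, against 237 to 274 CPM with IgG, without overlap. With DESeq2 size factors the values of SLC2A3 and SLC16A3 were 0.04 and 0.11 and no longer passed the test in that table. SHMT2 was lower with the agonist and fell with the antagonist (-0.27 ± 0.06, edgeR adjusted p = 0.00296). The levels of the 9 enzymes with the agonist were not analysed here.

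**Figure D5:**
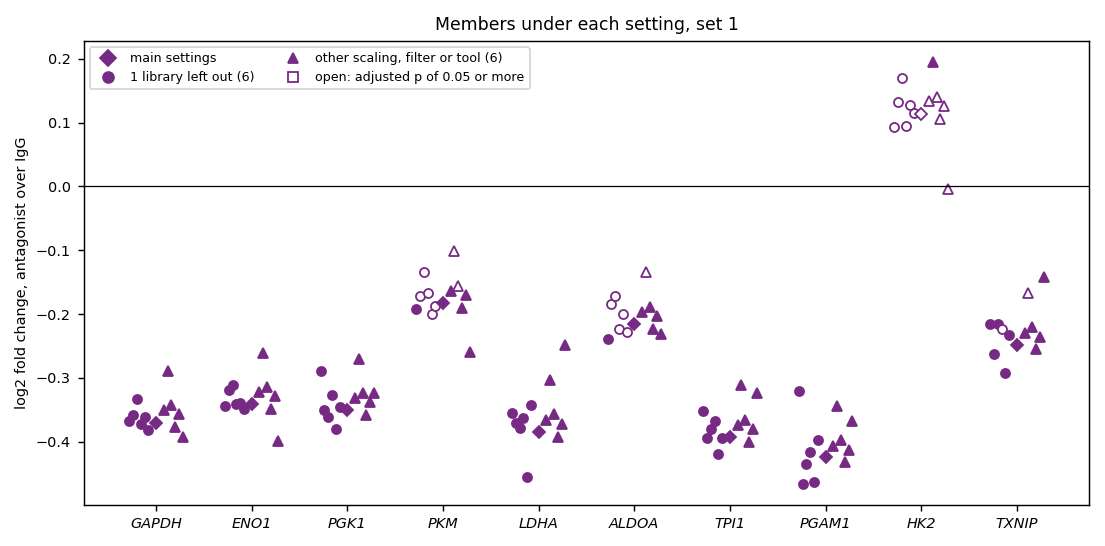
Log2 fold change, antagonist over IgG (y axis), of each gene with the settings used (diamond), with 1 of 6 libraries left out (circles) and with 6 other scalings, filters or tools (triangles). Open symbols have an adjusted p of 0.05 or more, and the line marks 0. GAPDH, ENO1, PGK1, LDHA, TPI1 and PGAM1 stay filled and below 0 throughout, and HK2 lies between -0.0042 and 0.20.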

How the data were processed

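Libraries were grouped by their labels into antagonist and IgG (set 1) and agonist and IgG (set 2), 3 each. Values are counts per gene deposited by the authors in 2 tables. HISAT2, Cufflinks and hg38 are named in the submitters' processing notes; for versions, counting program, annotation and strand use the entry is: not given in the sources used here. Entries without a gene symbol (570 of 28395 in set 1) were left out and held 0.0678% to 0.105% of counts. The set 2 table holds 904 selected genes, so its sums are not depths. Table columns name the group but no replicate; libraries are numbered in column order as names only. The p-values reflect the spread among 3 libraries a group, possibly technical.

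Each table was fitted whole with edgeR 4.0.16 (R 4.3.3): filterByExpr, TMM scaling, robust quasi-likelihood F test and Benjamini-Hochberg adjustment, with an adjusted p under 0.05 called. The SE is the absolute log2 fold change divided by the root of F. CPM are TMM-scaled. The procedure was tested on simulated data. The alternatives were DESeq2 1.42.0 size factors and Wald test, column totals, upper quartile, no filter, each library left out, and, added after seeing the data, length and GC trends removed (mgcv 1.9.3). The 10 genes and the lists were chosen with earlier results of these data known. Beyond the 10 genes, each list gave up to 4 called genes with the largest changes and a mean of at least 5 CPM, and isoform partners were named whatever their result. Shared 50-base windows were counted over annotated GENCODE transcripts, and gene positions and promoters are from RefSeq GRCh38.p14. Some genes of the lists are not reported here.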

Additional observations from a re-analysis of the deposited data

Results flagged for a closer look

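The log2 fold change of TXNIP with the agonist exceeded that with the antagonist by 0.702, each against its own IgG mean, because all agonist libraries were above and all antagonist libraries below their IgG means. The same pattern was seen for HK3 (0.6237), SLC16A3 (0.4451) and SLC2A3 (0.2321), and for ARRDC3 (1.161) and the myeloid markers TYROBP (0.9225) and FCER1G (0.5755). Other myeloid markers differed: ITGAX was higher with both antibodies (0.42 and 0.54), CSF1R was level with the antagonist (0.02) and CD14 was not tested with it. Of 867 genes tested in both sets, 13.6% were called lower with the antagonist and higher with the agonist. With the agonist, TYROBP and FCER1G lost their calls with trends removed, and SLC2A3 and SLC16A3 with DESeq2 size factors. ARRDC3, HK3 and SLC2A3 did not pass the edgeR test with the antagonist, although HK3 did with length and GC trends removed (-0.28). These differences were not tested, since the 2 tables have separate controls and the agonist table holds selected genes only.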

How the results depend on the processing

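Over 120 values of the 10 genes in set 1 (12 alternatives each), 103 kept direction and side of the threshold, 15 lost and 1 gained the call, and 1 changed sign. The 12 values of TXNIP in set 2 kept both. From 6 to 9 of the 10 genes were called lower when 1 library was left out, 6 with column totals and 8 with the upper quartile. HK2 was called only with column totals (0.20) and reached -0.0042 with length and GC trends removed, an alternative chosen after seeing the data. The genes called in set 1 numbered 3143 (without antagonist library 1) to 5075 when a library was left out, and 3190 without antagonist library 3, against 4978. Genes called lower among other glycolytic enzymes (3) were 5 with trends removed and 1 to 5 with a library left out, and for transport (3) 1 with column totals, 5 with trends removed and 1 to 5. The hypoxia list (4) gave 1 with column totals and 1 to 4, and pyruvate entry and citric acid cycle (25) gave 13 and 14 to 23. Other sign changes, none past the threshold, were those of H6PD, ENO2, PFKL and PFKP. With trends removed H6PD was at -0.062 and ENO2 at -0.027. With a library left out ENO2 ran from -0.11 to 0.14, PFKL reached 0.026 and PFKP ran from -0.060 to 0.051. With column totals PFKL was at 0.017 and PFKP at 0.062. PFKP was at 0.00019 with DESeq2 size factors and 0.0078 with the upper quartile. PFKL kept its sign and passed the threshold as lower without IgG library 1 (-0.14) and with trends removed (-0.21). Higher genes were 43.1% of set 1 calls, against 65.4% with column totals. They were 55.7% of set 2 calls, against 44.2% with DESeq2 size factors and 43.5% with DESeq2. With trends removed the set 2 median moved by -0.16. The causes were not tested. No paired analysis was possible because the table columns carry no replicate numbers. Levels near 5 CPM limit what BPGM, ENO2 and GAPDHS can show.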
